A study of Mus musculus with 16 samples.

Results

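The SLC25 genes encode the mitochondrial carrier family, the proteins that move nucleotides, phosphate, organic acids, amino acids, cofactors and metal ions across the inner membrane of the mitochondrion. Here the family was every array gene whose RefSeq symbol is Slc25a followed by a number, matched through the accession printed for each probe. Of 47 such genes with a probe, 36 were measured above background and entered the tests, among 21777 genes tested in all. The RNA came from gastrocnemius, a mixed calf muscle, of C57Bl/6J mice, all female and untreated. Ages were 3, 15, 24 and 29 months, with 4 single-colour arrays each. Whether the 4 samples of an age are separate animals is not stated, and p-values therefore reflect only how these samples vary, some of which may be technical. The 3- and 15-month arrays shared slide 1, and the 24- and 29-month arrays shared slide 2. Each age filled 1 row of its slide, row 2 for 3 and 29 months and row 1 for 15 and 24 months. Setting 15 against 3 months or 29 against 24 months thus stays within 1 slide, but there age and row cannot be told apart. In 29 against 3 and 24 against 15 months the row is the same, and age and slide cannot be told apart. In 24 against 3 months both slide and row differ, and age cannot be told apart from either.

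A carrier of this family has 3 repeats of a pair of membrane helices around a central site, and it swaps its substrate between the cytosol and the matrix by opening to one side at a time. In skeletal muscle the best known members exchange ADP for ATP, bring in phosphate, carry fatty acids as acylcarnitines and run the malate-aspartate shuttle that delivers cytosolic reducing power. Other members supply the matrix with cofactors such as NAD and coenzyme A, or with iron.

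Levels below are log2 processed signals minus the 75th percentile of the same array, so that 0 is the brightness of that percentile and a difference of 1 is a 2-fold change. Levels of different genes rest on different probes and are not set against each other. A gene changed where limma's moderated test over all 21777 genes gave a Benjamini-Hochberg adjusted p below 0.05. Between 48.01% and 60.89% of the spots of an array were well above background. All 10 muscle fibre markers, Acta1 and Ckm among them, were well above background on all 16 arrays. The 16 arrays were not equally tight. Array weights estimated by limma were lowest for replicates 1 (0.26) and 3 (0.42) of 29 months and replicates 2 (0.37) and 4 (0.51) of 24 months, and between 0.99 and 2.07 on the other 12. Replicate 1 of 29 months held the lowest value of its age for 20 of the 36 carriers. The median SD of the carriers within an age was 0.13, 0.15, 0.18 and 0.27 at 3, 15, 24 and 29 months, and that of all genes tested was 0.16, 0.16, 0.23 and 0.25.

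At 29 against 3 months 5 carriers rose and 8 fell, which is 13 of 36 or 36.1%, where 14.6% of all genes tested were called. Those that rose were Slc25a34, Slc25a22, Slc25a20, Slc25a17 and Slc25a28. Those that fell included Slc25a25, Slc25a47, Slc25a29, Slc25a35, Slc25a51, Slc25a12 and Slc25a14. By direction, the background was 6.99% of all genes higher and 7.66% lower. The median change over the 36 carriers was -0.08, against -0.04 over all genes tested, so the family moved in both directions and its middle stayed near that of the array. The carriers that carry the bulk of ATP export and phosphate import in muscle, Slc25a4 and Slc25a3, did not pass in any comparison of ages tested. All 13 changed carriers were well above background on all 16 arrays. Without the 4 arrays of lowest weight, a setting chosen after the data were seen, 7 carriers rose and 9 fell, and 12 of the 13 calls were shared. How many of all genes were called in that setting is not given here. With the arrays scaled to their median in place of the 75th percentile, 5 of the 13 remained: Slc25a34 and Slc25a22 higher, and Slc25a25, Slc25a35 and Slc25a47 lower. With only the 8 arrays of 3 and 29 months in the fit 6 passed, namely Slc25a34 and Slc25a22 higher and Slc25a35, Slc25a47, Slc25a51 and Slc25a1 lower. Without the filter on dim probes, Slc25a14, Slc25a20 and Slc25a28 no longer passed.

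**Figure D1:**
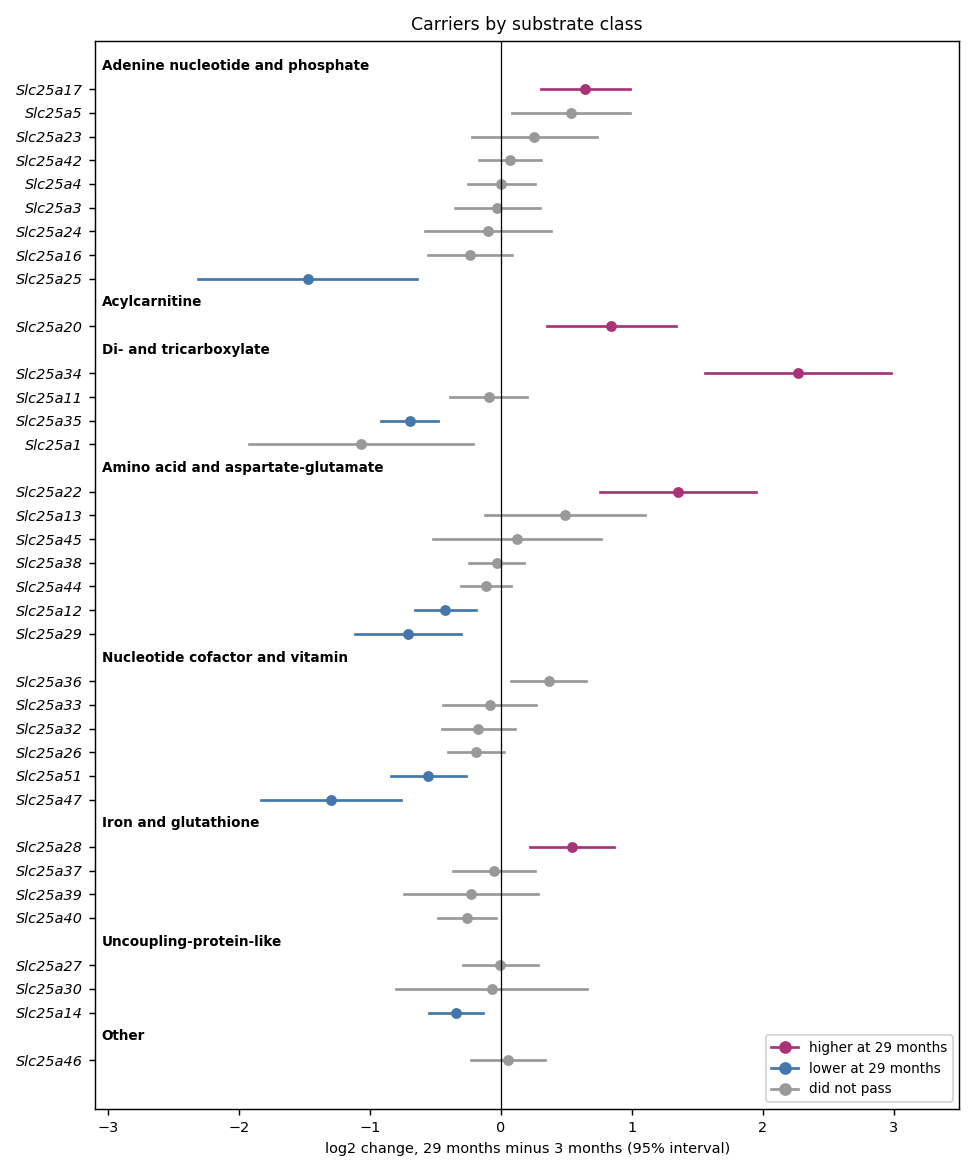
Log2 change at 29 months minus 3 months (horizontal axis) with its 95% interval for 35 carriers, grouped by substrate class; magenta carriers passed the test and were higher at 29 months, blue ones passed and were lower, grey ones did not pass. The 12 coloured carriers lie between -1.48 (Slc25a25) and 2.27 (Slc25a34), and 19 of the 23 grey ones changed by less than 0.3 in either direction.

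The arrays of 29 and 3 months did not overlap for 13 of the 36 carriers, 5 higher and 8 lower at 29 months, which is 36.1% of the family against 19.7% of all genes tested. These are not quite the same 13: Slc25a20 and Slc25a25 changed with overlapping arrays, while Slc25a5 and Slc25a1 did not overlap and missed the threshold.

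The largest rise belonged to Slc25a34, a carrier with no settled substrate that is related in sequence to the oxaloacetate carrier of yeast. Its levels were 1.65, 2.28, 1.40 and 2.72 at 3 months, 2.50, 2.10, 1.90 and 3.52 at 15 months, 3.00, 2.63, 2.38 and 2.51 at 24 months, and 3.92, 4.69, 4.24 and 4.28 at 29 months. Every 29-month array stood above every array of the other ages, and the 3-, 15- and 24-month arrays overlapped each other. The gene was 4.81-fold higher at 29 than at 3 months (log2 change 2.27, SE 0.33, 95% interval 1.55 to 2.98, adjusted p = 0.000536). Within slide 2 it was 3.14-fold higher at 29 than at 24 months (log2 change 1.65, SE 0.33, 95% interval 0.94 to 2.36, adjusted p = 0.0229), while within slide 1 the change at 15 against 3 months was 0.49 (adjusted p = 0.711). The call against 3 months held when any 1 array was left out (adjusted p at most 0.00247). The call against 24 months was lost without replicate 2, 3 or 4 of 24 months or replicate 2 or 3 of 29 months (adjusted p up to 0.0661). Dropping the filter on dim probes, or the 4 arrays of lowest weight (0.169), ended it too.

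Its promoter in RefSeq, 250 bases before to 50 bases after the annotated start, is shown because no other member changed as far; it lies on the minus strand of GRCm38.p6 at chr4:141623785-141624084 and is printed 5′ to 3′.
Slc25a34: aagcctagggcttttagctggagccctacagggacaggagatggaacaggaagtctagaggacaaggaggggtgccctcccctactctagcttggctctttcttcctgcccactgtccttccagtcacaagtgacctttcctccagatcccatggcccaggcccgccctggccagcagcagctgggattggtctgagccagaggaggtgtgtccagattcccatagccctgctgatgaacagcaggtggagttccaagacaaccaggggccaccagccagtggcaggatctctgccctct
None of 5 motifs searched on both strands was found in these letters: TNAAGGTCA, named for the oestrogen-related receptors, the palindrome of the nuclear respiratory factor NRF1, the spaced direct repeat of the PPAR receptors, CACGTG, the E-box, and TGACGTCA, the cAMP response element. The last was added after the Slc25a25 promoter, which holds it, had been read. Its count among SLC25 promoters can therefore not be weighed against its share of all promoters. RefSeq's table held 46 promoters for 36 of the 47 SLC25 genes. Among them the first 3 matched 0 promoters, where 1.28%, 0.971% and 0.0396% of all 32851 mouse promoters hold them. The E-box was found in 8 promoters of 7 SLC25 genes and in 7.15% of all promoters, and the cAMP response element in 2 promoters of 2 genes and in 1.79% of all. A match is a description of letters, and its absence says nothing of the factor.

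Slc25a35, the closest relative of Slc25a34 in the family and likewise without a settled substrate, went the other way. Its levels were -0.99, -0.96, -1.1 and -0.88 at 3 months, -1.04, -0.94, -0.59 and -0.94 at 15 months, -1.03, -0.99, -1.19 and -0.94 at 24 months, and -1.65, -1.67, -1.72 and -1.68 at 29 months. The 29-month arrays lay close together and below all 12 younger arrays, whose 3 ages overlapped. Slc25a35 was 1.62-fold lower at 29 than at 3 months (log2 change -0.70, SE 0.10, 95% interval -0.92 to -0.48, adjusted p = 0.000492). It was 1.56-fold lower at 29 than at 24 months (log2 change -0.64, SE 0.10, 95% interval -0.86 to -0.42, adjusted p = 0.00675), and at 15 against 3 months its change was 0.10 (adjusted p = 0.863). The call at 29 against 3 months held under each alternative setting tried, but normexp background correction brought the change to -0.34 there and to -0.32 at 29 against 24 months. The call at 29 against 24 months was lost with median scaling (adjusted p = 0.116), with only those ages in the fit (0.114) and without the 4 arrays of lowest weight (0.141).

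Slc25a1, the citrate carrier that exports citrate to the cytosol for lipid synthesis, sat close to the threshold. Its levels were -1.46, -1.40, -1.05 and -0.92 at 3 months, -1.5, -1.22, -0.90 and -1.59 at 15 months, -1.25, -1.65, -1.82 and 0.45 at 24 months, and -1.84, -2.45, -2.97 and -1.87 at 29 months. Replicate 4 of 24 months stood far above the other 15 arrays, and the 29-month arrays all lay below those of 3 and 15 months. At 29 against 3 months the gene was 2.1-fold lower without passing (log2 change -1.07, SE 0.40, 95% interval -1.93 to -0.22, adjusted p = 0.0885). Without replicate 4 of 24 months the adjusted p became 0.0106, so 1 array of an age outside the comparison decides this call, and with only the 2 ages in the fit it was 0.0379. The change at 24 against 3 months was 0.14 with that array and -0.36 without it. That array also scored 2.99 on 6 adipocyte markers (mean log2 deviation from their level over all arrays), where the other 3 arrays of 24 months scored 0 to 0.24. The score was -2.05 to 0.68 at 29 months and -0.58 to -0.19 at 3 months, and none of the 6 markers passed the test between those ages; the part of fat cells in the Slc25a1 values was not tested. In bulk muscle, fewer cells of a type and less RNA per cell cannot be told apart.

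Slc25a11, the oxoglutarate-malate carrier of the malate-aspartate shuttle, had levels of 6.99, 7.05, 6.90 and 7.13 at 3 months, 6.87, 6.89, 6.81 and 7.02 at 15 months, 7.12, 6.95, 7.12 and 6.93 at 24 months, and 6.49, 7.34, 6.89 and 6.97 at 29 months. The ages overlapped throughout, and replicate 1 of 29 months was the lowest of the 16. Its change at 29 against 3 months was -0.10 (95% interval -0.39 to 0.20, adjusted p = 0.704), and 0.05 without that array. The dicarboxylate carrier Slc25a10 was well above background on at most 3 arrays and the oxodicarboxylate carrier Slc25a21 on 1, so neither entered the tests. Of the 4 tested members of this class 1 rose and 1 fell at 29 against 3 months, where 14.6% of all genes tested were called.

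Slc25a20, the carnitine-acylcarnitine carrier through which long-chain fatty acids reach the matrix, was higher at 29 than at 3 months. Its levels were 0.96, 1.73, 0.57 and 1.36 at 3 months, 1.83, 1.26, 1.07 and 1.82 at 15 months, 1.77, 1.56, 1.85 and 1.66 at 24 months, and 1.64, 2.23, 1.97 and 2.14 at 29 months. At 3 months the arrays were spread over more than 1 log2 unit and the highest of them exceeded the lowest 29-month array, so the ages overlapped. The gene averaged 2.0 ± 0.26 at 29 months and 1.16 ± 0.50 at 3 months (SD, n = 4 each), a 1.79-fold rise (log2 change 0.84, SE 0.23, 95% interval 0.35 to 1.33, adjusted p = 0.0246). The changes within slides were 0.34 (adjusted p = 0.712) at 15 against 3 months and 0.29 (adjusted p = 0.621) at 29 against 24 months. The call was lost without replicate 1 or 3 of 3 months or replicate 2 or 4 of 29 months (adjusted p up to 0.0746), as well as with median scaling.

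Around this carrier, 1 of 10 genes of the carnitine shuttle and the acyl-CoA synthetases rose and 1 fell at 29 against 3 months. That is 20%, not far from the 14.6% of all genes tested. Acsl6, a long-chain acyl-CoA synthetase, averaged 1.96 ± 0.44 at 29 months and 1.18 ± 0.09 at 3 months (SD, n = 4 each) and rose (log2 change 0.78, SE 0.17, 95% interval 0.43 to 1.14, adjusted p = 0.00577); it was also higher at 24 than at 3 months, by 0.65 (adjusted p = 0.0384). The mean over the probes of Acsl6 gave no call at 29 against 3 months (adjusted p = 0.174), so that call depends on the probe used. Acsl4, another synthetase, fell (log2 change -0.42, SE 0.12, 95% interval -0.68 to -0.17, adjusted p = 0.0275), and lost that call when any 1 of 4 arrays was left out, namely replicates 3 and 4 of 3 months and replicates 1 and 3 of 29 months (adjusted p up to 0.0855). The carnitine palmitoyltransferases, which load and unload acylcarnitine on either side of Slc25a20, did not pass: Cpt1b changed by 0.32 (adjusted p = 0.171) and Cpt2 by 0.28 (adjusted p = 0.255). Without the 4 arrays of lowest weight, 5 of the 10 rose and 0 fell, and the median change was 0.51 in place of 0.30. The share of all genes called in that setting is not given here.

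Ucp3 and Ucp2, uncoupling proteins of the same carrier fold that keep their own symbols, also rose. At 29 against 3 months they were the 2 of 4 measured related carriers that passed (50%, against 14.6% of all genes tested), a count of few genes. Ucp3, the form typical of skeletal muscle, had levels of 1.29, 1.49, 1.55 and 1.57 at 3 months, 3.34, 3.17, 2.45 and 3.22 at 15 months, 3.23, 1.96, 2.87 and 2.22 at 24 months, and 3.49, 3.71, 3.55 and 3.77 at 29 months. Every array older than 3 months stood above every 3-month array. At 29 against 3 months, across the slides, Ucp3 changed by 2.16, a call kept under all 28 alternative settings (limma, highest adjusted p 0.000571). Within slide 1 Ucp3 was 2.97-fold higher at 15 than at 3 months (log2 change 1.57, SE 0.24, 95% interval 1.05 to 2.09, adjusted p = 0.00597), a call that held when any 1 array was left out. No SLC25 carrier changed in that comparison. Within slide 2 Ucp3 was 2.09-fold higher at 29 than at 24 months (log2 change 1.06, SE 0.24, 95% interval 0.54 to 1.58, adjusted p = 0.039), a call that was lost under 18 of 28 alternative settings. With single arrays left out it held only without replicate 1 or 3 of 15 months, replicate 1 of 24 months or replicate 1 of 29 months (adjusted p up to 0.102 in the other 12). At 24 against 3 months, across the slides, it changed by 1.1 (adjusted p = 0.0202), and that call was lost without replicate 1 of 3 months or replicate 1 of 24 months (adjusted p up to 0.0535). Median scaling (0.0839) and a fit of only those ages (0.0677) ended it too. Ucp2 had levels of -1.90, -1.70, -2.04 and -1.66 at 3 months, -1.72, -1.40, -1.40 and -1.65 at 15 months, -1.57, -2.10, -1.36 and -0.32 at 24 months, and 0.39, -0.83, -1.40 and -0.83 at 29 months. All its 29-month arrays lay above those of 3 months but overlapped those of 24 months, and it was 2.23-fold higher at 29 than at 3 months (log2 change 1.16, SE 0.35, 95% interval 0.40 to 1.91, adjusted p = 0.0408). Among single arrays left out, that call held only without replicate 1, 2 or 4 of 24 months or replicate 3 of 29 months (adjusted p up to 0.0998 in the other 12). Ucp1, the brown-fat form, was not measured above background, and the carrier homologues Mtch1 and Mtch2 of the outer membrane did not pass (-0.11 and -0.14 at 29 against 3 months).

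**Figure D2:**
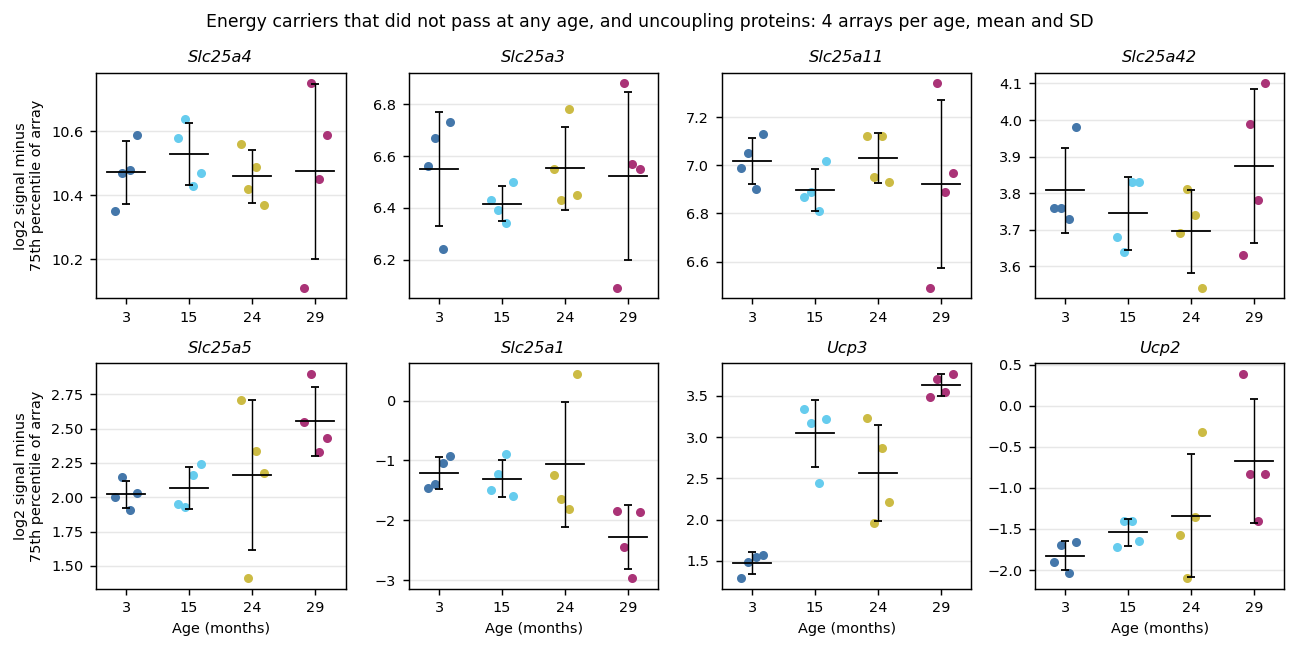
Level on each array (log2 signal minus the 75th percentile of the array, vertical axes on separate scales) by age for 6 energy carriers that passed no comparison of ages and for Ucp3 and Ucp2; points are the 4 arrays of an age, the line and bars their mean and SD. Slc25a4 stays between 10.11 and 10.75, Slc25a1 shows 1 high array at 24 months, and all Ucp3 points after 3 months lie above those of 3 months.

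The ADP/ATP and phosphate carriers showed no change that passed. Slc25a4, the heart and muscle form of the ADP/ATP carrier, had levels of 10.35, 10.47, 10.48 and 10.59 at 3 months, 10.58, 10.64, 10.43 and 10.47 at 15 months, 10.56, 10.42, 10.49 and 10.37 at 24 months, and 10.11, 10.75, 10.45 and 10.59 at 29 months. The ages overlapped, and the lowest and the highest of the 16 arrays were both at 29 months. The change at 29 against 3 months was 0.00 with a 95% interval of -0.25 to 0.26 (adjusted p = 0.993). Slc25a3, the phosphate carrier, had levels of 6.56, 6.67, 6.24 and 6.73 at 3 months, 6.43, 6.39, 6.34 and 6.50 at 15 months, 6.55, 6.43, 6.78 and 6.45 at 24 months, and 6.09, 6.88, 6.57 and 6.55 at 29 months, and its ages overlapped. It changed by -0.03 at 29 against 3 months (95% interval -0.35 to 0.29, adjusted p = 0.926), and by 0.12 without replicate 1 of 29 months, its lowest array. These intervals bound what the arrays allow and do not show equal levels.

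Slc25a5, the ADP/ATP carrier of proliferating and many other cells, had levels of 2.0, 2.15, 1.91 and 2.03 at 3 months, 1.95, 1.93, 2.16 and 2.24 at 15 months, 2.71, 1.41, 2.34 and 2.18 at 24 months, and 2.55, 2.90, 2.33 and 2.43 at 29 months. The 29-month arrays all stood above the 3-month arrays, and the 24-month arrays ran from the lowest to the second highest value of all. It missed the threshold at 29 against 3 months (log2 change 0.53, SE 0.21, 95% interval 0.08 to 0.98, adjusted p = 0.107). Without replicate 2 of 24 months, the lowest array, the adjusted p was 0.0205, so here too 1 array of another age decides the call.

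Slc25a25, a calcium-regulated carrier that exchanges ATP-magnesium for phosphate and so helps set the size of the adenine nucleotide pool of the matrix, had the largest fall in the family. Its levels were 3.62, 4.15, 5.22 and 4.39 at 3 months, 3.87, 3.76, 3.94 and 3.49 at 15 months, 3.73, 3.86, 3.23 and 2.96 at 24 months, and 4.11, 2.74, 1.94 and 2.68 at 29 months. Replicate 3 of 3 months was the highest array and replicate 3 of 29 months the lowest, and replicate 1 of 29 months, at 4.11, lay among the 3-month arrays. Slc25a25 averaged 2.87 ± 0.91 at 29 months and 4.34 ± 0.66 at 3 months (SD, n = 4 each) and was 2.78-fold lower (log2 change -1.48, SE 0.39, 95% interval -2.31 to -0.64, adjusted p = 0.0209). A second probe of the gene gave the same change, -1.48. Within slides the changes were -0.58 (adjusted p = 0.71) at 15 against 3 months and -0.58 (adjusted p = 0.535) at 29 against 24 months. The call was lost without replicate 3 of 3 months or replicate 3 of 29 months (adjusted p up to 0.0656) and with only those ages in the fit (0.089). Its relatives Slc25a23 and Slc25a24, the other calcium-regulated ATP-magnesium carriers tested, changed by 0.25 (adjusted p = 0.501) and -0.10 (adjusted p = 0.81).

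Slc25a25 has 3 annotated starts in RefSeq. The promoter of one of them, on the minus strand of GRCm38.p6 at chr2:32424017-32424316, is shown because it holds the cAMP response element, in capitals, 150 bases before the start.
Slc25a25: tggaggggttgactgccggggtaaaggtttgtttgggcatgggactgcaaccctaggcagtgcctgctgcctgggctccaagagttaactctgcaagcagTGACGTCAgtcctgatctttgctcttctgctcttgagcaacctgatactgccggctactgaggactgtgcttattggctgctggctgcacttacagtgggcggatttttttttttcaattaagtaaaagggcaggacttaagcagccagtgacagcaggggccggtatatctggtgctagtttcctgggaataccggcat
The promoters of its other starts hold none of the 5 motifs. The only other SLC25 promoter with the element was that of Slc25a36, a pyrimidine nucleotide carrier whose change was 0.36 (adjusted p = 0.0846).

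Slc25a17, which sits in the peroxisome and not in the mitochondrion and in humans carries coenzyme A, FAD and NAD, rose at the oldest age. Its levels were 1.83, 1.62, 1.90 and 1.73 at 3 months, 1.79, 1.73, 1.72 and 1.88 at 15 months, 1.93, 1.52, 1.72 and 1.77 at 24 months, and 1.95, 2.88, 2.25 and 2.58 at 29 months. All 29-month arrays were above all others, by little in the case of replicate 1. It averaged 2.41 ± 0.40 at 29 months and 1.77 ± 0.12 at 3 months (SD, n = 4 each) and was 1.56-fold higher (log2 change 0.64, SE 0.16, 95% interval 0.30 to 0.99, adjusted p = 0.0147). Against 24 months the change was of like size (log2 change 0.68, SE 0.16, 95% interval 0.34 to 1.02, adjusted p = 0.0446), and at 15 against 3 months it was 0.01 (adjusted p = 0.999). The first call held with any 1 array left out and was lost with median scaling (highest adjusted p over all settings 0.0932). The call against 24 months was lost when any 1 array other than replicate 1 of 29 months was left out (adjusted p up to 0.125).

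Slc25a42, a coenzyme A carrier, had levels of 3.76, 3.76, 3.73 and 3.98 at 3 months, 3.68, 3.64, 3.83 and 3.83 at 15 months, 3.69, 3.81, 3.74 and 3.54 at 24 months, and 3.63, 3.99, 3.78 and 4.10 at 29 months. The ages overlapped, and its change at 29 against 3 months was 0.07 (95% interval -0.17 to 0.30, adjusted p = 0.733). The remaining tested member of the class, Slc25a16, changed by -0.24 (adjusted p = 0.318). Of the 9 tested carriers of adenine nucleotides, coenzyme A and phosphate, 1 rose and 1 fell at 29 against 3 months (22.2%, against 14.6% of all genes tested), with a median change of 0.00.

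Slc25a22, a carrier that brings glutamate into the matrix with a proton, rose at 29 months. Its levels were 0.10, -0.22, 0.08 and 0.81 at 3 months, 0.54, 0.18, 0.08 and 0.84 at 15 months, 0.94, 0.59, 0.16 and 0.67 at 24 months, and 0.98, 2.31, 1.38 and 1.51 at 29 months. The 29-month arrays all exceeded those of the other ages, and the younger ages overlapped. The gene was 2.55-fold higher at 29 than at 3 months (log2 change 1.35, SE 0.28, 95% interval 0.76 to 1.95, adjusted p = 0.00522). Within slides it changed by 0.22 (adjusted p = 0.914) at 15 against 3 months and by 0.95 (adjusted p = 0.102) at 29 against 24 months. The call at 29 against 3 months held under all 28 alternative settings (highest adjusted p 0.029).

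Slc25a12, the calcium-stimulated aspartate-glutamate carrier of muscle and brain and the one-way step of the malate-aspartate shuttle, fell. Its levels were 6.41, 6.56, 6.16 and 6.50 at 3 months, 6.44, 6.25, 6.53 and 6.30 at 15 months, 6.20, 6.16, 6.34 and 6.01 at 24 months, and 5.88, 6.15, 6.00 and 5.90 at 29 months. The 29-month arrays lay just below those of 3 months, with almost no gap, and overlapped those of 24 months. Slc25a12 was 1.34-fold lower at 29 than at 3 months (log2 change -0.42, SE 0.11, 95% interval -0.66 to -0.19, adjusted p = 0.0182). The call was lost without replicate 2 or 4 of 3 months (adjusted p up to 0.0614), and also with median scaling or once the 4 arrays of lowest weight were dropped. Within slides the changes were -0.03 (adjusted p = 0.99) at 15 against 3 months and -0.19 (adjusted p = 0.439) at 29 against 24 months.

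Slc25a13, the aspartate-glutamate carrier best known from liver, passed the test for any difference among the 4 ages (moderated F test, adjusted p = 0.0419). It passed in no pair of ages that was tested, and 29 against 15 months was not tested. That F test called 10 of the 36 carriers, 27.8%, against 11.9% of all genes. The levels of Slc25a13 were -2.22, -2.35, -3.38 and -2.04 at 3 months, -3.04, -3.45, -2.98 and -2.91 at 15 months, -2.24, -2.05, -1.76 and -1.84 at 24 months, and -2.62, -1.33, -2.22 and -1.88 at 29 months, and 15 of its 16 arrays were well above background. The 24-month arrays stood above the 15-month arrays with no overlap, a step of 1.12 that crosses the slides (adjusted p = 0.137). Its F-test call was lost when any 1 of 11 arrays was left out (adjusted p up to 0.115), and held without replicate 3 or 4 of 3 months, replicate 1 of 24 months or replicate 1 or 2 of 29 months. Among the shuttle's enzymes, the aspartate aminotransferases Got1 and Got2 changed by -0.04 and -0.08 and did not pass.

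The parallel glycerol phosphate shuttle, which passes reducing power to the inner membrane without an SLC25 carrier, fell in both its enzymes. Gpd2, its mitochondrial enzyme, averaged 1.5 ± 0.06 at 29 months and 2.65 ± 0.22 at 3 months (SD, n = 4 each) and was 2.22-fold lower (log2 change -1.15, SE 0.17, 95% interval -1.51 to -0.79, adjusted p = 0.000536). Gpd1, its cytosolic enzyme, averaged 7.31 ± 0.22 at 29 months and 8.02 ± 0.11 at 3 months (SD, n = 4 each) and was 1.64-fold lower (log2 change -0.71, SE 0.16, 95% interval -1.05 to -0.37, adjusted p = 0.00873). Both calls held under all 28 alternative settings. These were the 2 of 6 listed shuttle enzymes that passed (33.3%, against 14.6% of all genes tested), a count of few genes, and none rose.

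Slc25a29, a carrier of basic amino acids, had levels of 0.85, 0.58, 0.79 and 1.06 at 3 months, 0.46, 0.49, 0.77 and 0.78 at 15 months, 0.61, 0.33, 0.34 and 0.37 at 24 months, and -0.51, 0.51, 0.45 and 0.00 at 29 months. Its 29-month arrays all lay below those of 3 months, and replicates 1 and 4 of 29 months were the lowest of all 16. Slc25a29 was 1.64-fold lower at 29 than at 3 months (log2 change -0.71, SE 0.19, 95% interval -1.11 to -0.31, adjusted p = 0.0207), and the call was lost without replicate 4 of 3 months (adjusted p = 0.0646). Slc25a44, a carrier of branched-chain amino acids, had levels of 0.04, 0.03, 0.01 and 0.12 at 3 months, 0.01, -0.16, 0.13 and -0.02 at 15 months, -0.21, -0.20, -0.12 and -0.17 at 24 months, and -0.23, -0.13, 0.08 and 0.02 at 29 months. Its 24-month arrays lay below those of 3 months and its 29-month arrays overlapped both, and the change at 29 against 3 months was -0.11 (adjusted p = 0.438). Slc25a38, a glycine carrier for haem synthesis, changed by -0.04 (adjusted p = 0.859) and Slc25a45 by 0.12 (adjusted p = 0.832). In this class of 7 tested carriers 1 rose and 2 fell at 29 against 3 months (42.9%, against 14.6% of all genes tested), a count of few genes.

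Of 7 tested carriers of nucleotide cofactors and vitamins 3 fell and 0 rose at 29 against 3 months, a count of few genes, where 7.66% of all genes tested fell and 6.99% rose. Slc25a51 brings NAD into the mitochondrion. Its levels were 3.56, 3.67, 3.53 and 3.71 at 3 months, 3.5, 3.27, 3.60 and 3.34 at 15 months, 3.12, 3.14, 3.29 and 2.83 at 24 months, and 2.70, 3.05, 3.33 and 3.16 at 29 months. The 24- and 29-month arrays all lay below those of 3 months and overlapped each other and the lower 15-month arrays. Slc25a51 was 1.47-fold lower at 29 than at 3 months (log2 change -0.56, SE 0.14, 95% interval -0.84 to -0.27, adjusted p = 0.0128), and a second probe gave -0.46. It was the 1 carrier to change at 24 against 3 months (log2 change -0.52, SE 0.14, 95% interval -0.81 to -0.23, adjusted p = 0.0409), which is 2.78% of the family against 4.66% of all genes tested, with 2.49% of them lower at 24 months. The arrays of these ages did not overlap for 7 carriers, 19.4%, against 14.8% of all genes. The call at 29 months held with any 1 array left out and was lost with median scaling (adjusted p = 0.0975). The call at 24 months was lost when any 1 of 10 arrays was left out (adjusted p up to 0.113), and held only without replicate 3 of 15 months, replicate 3 of 24 months or any 1 array of 29 months. The steps within slides were -0.19 (adjusted p = 0.737) at 15 against 3 months and -0.04 (adjusted p = 0.939) at 29 against 24 months.

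Slc25a47, known mainly from liver and without a settled substrate, was listed with the cofactor carriers. Its levels were 0.56, 0.68, 0.31 and 0.42 at 3 months, 0.08, 0.18, 0.47 and 0.40 at 15 months, -0.01, -0.50, -0.18 and -0.56 at 24 months, and -1.67, -0.05, -0.80 and -0.71 at 29 months. All 24- and 29-month arrays were negative and all 3- and 15-month arrays positive on this scale, so the split follows the slides as well as age. Within slide 2, replicate 2 of 29 months lay among the 24-month arrays. Slc25a47 was 2.46-fold lower at 29 than at 3 months (log2 change -1.30, SE 0.25, 95% interval -1.83 to -0.77, adjusted p = 0.00317), and -0.50 (adjusted p = 0.367) at 29 against 24 months and -0.21 (adjusted p = 0.904) at 15 against 3 months did not pass. The call held under all 28 settings, with the change at -0.76 under normexp background correction.

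Slc25a33, a pyrimidine nucleotide carrier, had levels of 3.42, 3.09, 3.60 and 3.53 at 3 months, 2.91, 2.98, 3.02 and 3.16 at 15 months, 3.73, 3.10, 2.96 and 3.00 at 24 months, and 3.59, 3.23, 3.36 and 3.11 at 29 months. Its ages overlapped, and the change at 29 against 3 months was -0.09 (adjusted p = 0.781). Slc25a36, its relative, had levels of 0.00, -0.15, -0.08 and 0.07 at 3 months, 0.22, 0.26, 0.33 and 0.34 at 15 months, -0.26, -0.02, 0.12 and 0.01 at 24 months, and -0.14, 0.56, 0.47 and 0.40 at 29 months. The 15-month arrays stood above the 3-month arrays with no overlap and 3 of the 4 29-month arrays did so too, but the changes of 0.33 (adjusted p = 0.352) at 15 and 0.36 (adjusted p = 0.0846) at 29 against 3 months did not pass. The S-adenosylmethionine carrier Slc25a26 and the folate and flavin carrier Slc25a32 changed by -0.19 (adjusted p = 0.227) and -0.17 (adjusted p = 0.41).

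Slc25a28, or mitoferrin 2, an iron importer of the inner membrane, rose. Its levels were 2.73, 2.75, 2.84 and 2.92 at 3 months, 3.26, 3.08, 3.18 and 3.03 at 15 months, 3.04, 3.60, 3.03 and 2.98 at 24 months, and 3.28, 3.08, 3.74 and 3.30 at 29 months. Every array older than 3 months stood above every 3-month array, and the 3 older ages overlapped. Slc25a28 was 1.46-fold higher at 29 than at 3 months (log2 change 0.54, SE 0.15, 95% interval 0.22 to 0.86, adjusted p = 0.0249). At 15 against 3 months, within slide 1, its change was 0.33 (adjusted p = 0.44), and at 29 against 24 months it was 0.19 (adjusted p = 0.616). The call was lost without replicate 1 or 2 of 3 months or replicate 3 of 29 months (adjusted p up to 0.068). Slc25a37, or mitoferrin 1, the importer of red cell precursors, had levels of 2.38, 2.29, 2.54 and 2.33 at 3 months, 2.61, 2.59, 2.68 and 2.04 at 15 months, 2.56, 2.64, 2.50 and 2.23 at 24 months, and 2.18, 2.15, 2.45 and 2.56 at 29 months. Its ages overlapped, and the change at 29 against 3 months was -0.05 (95% interval -0.36 to 0.26, adjusted p = 0.86).

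Slc25a39 and Slc25a40 serve the import of glutathione into mitochondria. Slc25a40 passed the F test (adjusted p = 0.0391) and none of the pairs of ages tested, which leave out 29 against 15 months. Its levels were -1.23, -1.23, -1.60 and -1.39 at 3 months, -1.24, -1.28, -1.27 and -1.26 at 15 months, -1.61, -1.63, -1.55 and -1.86 at 24 months, and -1.44, -1.72, -1.74 and -1.60 at 29 months. The 24-month arrays lay below the 15-month arrays without overlap, a step of -0.40 across the slides (adjusted p = 0.149), and the F-test call held only without replicate 3 of 3 months, replicate 3 of 24 months or replicate 1 of 29 months, among single arrays left out (adjusted p up to 0.0813 in the other 13). Slc25a39 changed by -0.23 (adjusted p = 0.578) at 29 against 3 months.

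Among 3 tested relatives of the uncoupling proteins, 1 fell at 29 against 3 months (33.3%, against 14.6% of all genes tested), a count of few genes. It was Slc25a14, the form first described from brain. Its levels were 0.48, 0.57, 0.60 and 0.50 at 3 months, 0.49, 0.38, 0.55 and 0.40 at 15 months, 0.37, -0.02, 0.36 and 0.22 at 24 months, and 0.19, 0.15, 0.10 and 0.33 at 29 months. All arrays of 24 and 29 months lay below all arrays of 3 and 15 months, so here too the split follows the slides as well as age. Slc25a14 was 1.27-fold lower at 29 than at 3 months (log2 change -0.34, SE 0.10, 95% interval -0.55 to -0.14, adjusted p = 0.0277), with -0.08 (adjusted p = 0.9) and -0.04 (adjusted p = 0.896) at 15 against 3 and at 29 against 24 months. The call was lost without replicate 2, 3 or 4 of 3 months or replicate 2 or 3 of 29 months (adjusted p up to 0.0715). Slc25a30 had levels of -2.20, -2.76, -2.42 and -2.74 at 3 months, -2.41, -2.18, -2.37 and -2.65 at 15 months, -2.52, -1.47, -2.52 and -2.30 at 24 months, and -1.86, -3.68, -1.94 and -2.93 at 29 months. Its 29-month arrays were spread from the lowest to near the highest of all 16, only 2 of those 4 were well above background, and the change of -0.07 at 29 against 3 months did not pass (adjusted p = 0.92) and was 0.29 without replicate 2 of 29 months. Slc25a27, best known from brain, changed by -0.01 (adjusted p = 0.983).

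Slc25a14 was also the 1 carrier with an E-box among carriers called at 29 against 3 months that had a promoter to search. Of all mouse promoters 7.15% hold an E-box, and 1 match among few carriers is a description of letters only. RefSeq's table held no promoter for the called carriers Slc25a35 and Slc25a51, among others. Slc25a14 has 3 annotated starts, and the promoters of 2 of them share that hexamer. The one on the plus strand of GRCm38.p6 at chrX:48623328-48623627 is shown, with the E-box in capitals 184 bases before its start.
Slc25a14: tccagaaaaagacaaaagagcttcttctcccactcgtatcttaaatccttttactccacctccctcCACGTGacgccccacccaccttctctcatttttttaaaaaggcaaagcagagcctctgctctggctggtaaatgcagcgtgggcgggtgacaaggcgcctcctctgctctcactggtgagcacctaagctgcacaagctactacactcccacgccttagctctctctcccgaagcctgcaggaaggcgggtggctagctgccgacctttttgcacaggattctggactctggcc
The other SLC25 genes with an E-box in this window were Slc25a1, Slc25a13, Slc25a15, Slc25a31, Slc25a33 and Slc25a36; Slc25a15 and Slc25a31 were among those not measured above background.

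Slc25a46, an outer-membrane member that takes part in mitochondrial fusion and fission rather than transport, had levels of 3.42, 3.35, 3.42 and 3.58 at 3 months, 3.41, 3.25, 3.19 and 3.41 at 15 months, 3.35, 3.10, 3.20 and 3.07 at 24 months, and 3.14, 3.86, 3.39 and 3.59 at 29 months. The 24-month arrays lay at or below the lowest of 3 months and the 29-month arrays overlapped both. Its change was 0.05 (adjusted p = 0.842) at 29 against 3 months and 0.32 (adjusted p = 0.266) at 29 against 24 months; the first was -0.07 without replicate 2 of 29 months.

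**Figure D3:**
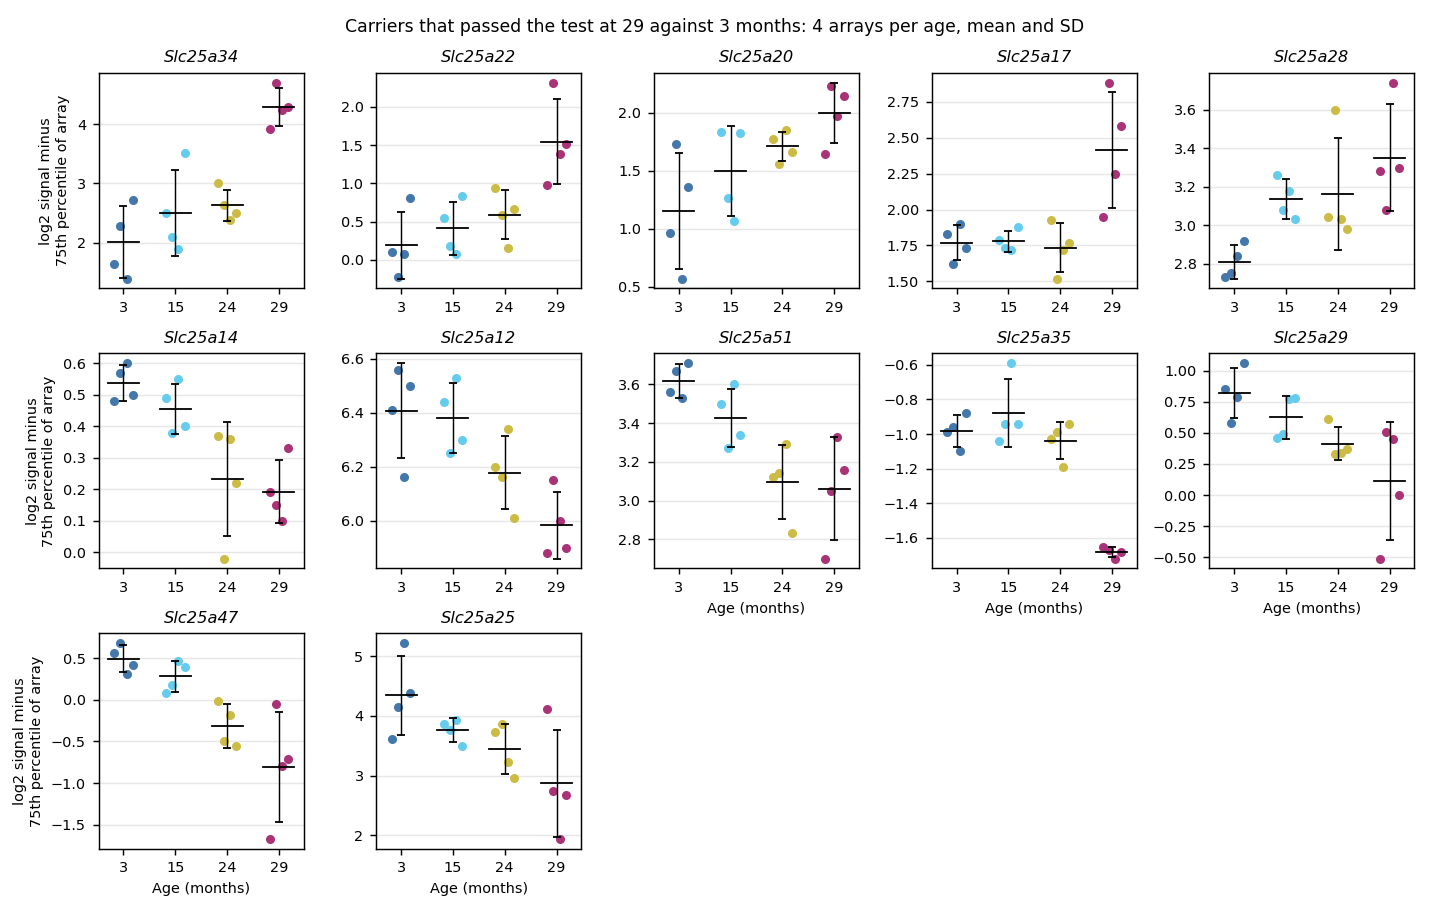
Level on each array (log2 signal minus the 75th percentile of the array, vertical axes on separate scales) by age for 12 carriers that passed at 29 against 3 months, ordered from the largest rise to the largest fall; points are the 4 arrays of an age, the line and bars their mean and SD. The 29-month points of Slc25a34 and Slc25a35 stand clear of all other ages, those of Slc25a22 and Slc25a17 lie above them by as little as 0.98 against 0.94 and 1.95 against 1.93, while those of Slc25a20 and Slc25a25 overlap the 3-month points.

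Within the slides few carriers changed. At 29 against 24 months 2 rose (Slc25a34 and Slc25a17) and 1 fell (Slc25a35), or 8.33% of the family against 1.91% of all genes tested (1.47% higher and 0.445% lower). The arrays of these ages did not overlap for 5 carriers, 13.9%, against 7.04% of all genes. At 15 against 3 months 0 of 36 passed limma's test, where 0.978% of all genes did, and 3 had an unadjusted p below 0.05. The arrays of these ages did not overlap for 2 carriers, 5.56%, against 12.1% of all genes. At 24 against 15 months, across the slides, 0 passed limma's test against 0.0964% of all genes, 6 had an unadjusted p below 0.05, and 7 did not overlap, 19.4% against 9.99%. A straight line in age fitted within the slides also called 0 carriers, against 0.634% of all genes, and 3 had an unadjusted p below 0.05. The comparisons of 15 with 3 and of 29 with 24 months share no array. In them 25 carriers changed with the same sign and 11 with opposite signs, a description across genes that are not independent of each other.

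**Figure D4:**
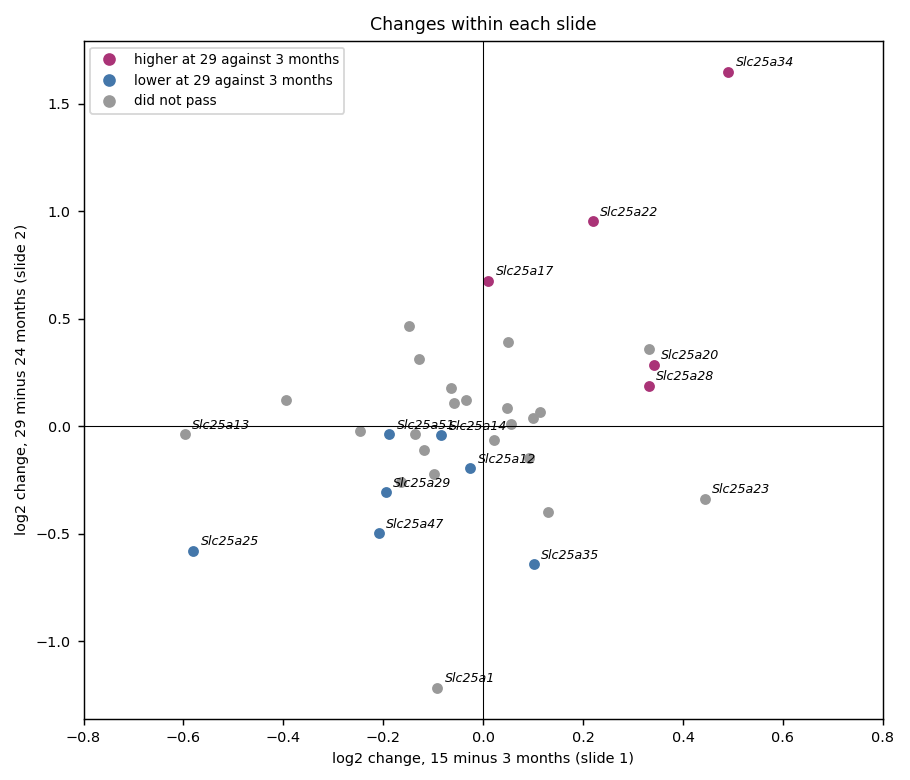
Log2 change at 29 minus 24 months (vertical axis, slide 2) against the change at 15 minus 3 months (horizontal axis, slide 1) for 35 carriers; colours give the result at 29 against 3 months, magenta higher, blue lower and grey not passed, and the 12 carriers shown that passed there are labelled with a few others far from 0. Slc25a34 lies highest (1.65 at 29 minus 24 months) and Slc25a1 lowest (-1.22).

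The 21 carriers that passed neither between any pair of ages tested nor by the F test include the ADP/ATP carriers Slc25a4 and Slc25a5 and the phosphate carrier Slc25a3. Of the 23 that did not pass at 29 against 3 months, the changes ran from -1.07 (Slc25a1) to 0.53 (Slc25a5). For 8 carriers a second probe was also above background, and in all 8 both probes had the same sign at 29 against 3 months, with at most 0.26 between them. The 11 carriers that were not measured were Slc25a2, Slc25a10, Slc25a15, Slc25a18, Slc25a21, Slc25a31, Slc25a41, Slc25a43, Slc25a48, Slc25a53 and Slc25a54. At no age did 1 of them clear the background on every array, and Slc25a10, Slc25a15 and Slc25a18 came closest with 3 arrays in total.

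Lists of partner genes give the setting. None of 15 genes of the respiratory chain, the citrate cycle and mitochondrial DNA upkeep passed at 29 against 3 months by limma, 1 had an unadjusted p below 0.05, and the median change was -0.16. That median was 0.05 without the 4 arrays of lowest weight, so its sign rests on those arrays. None of 5 phosphocreatine genes passed, nor had any an unadjusted p below 0.05. Of 16 genes of the machinery that imports carriers through the outer and inner membranes, 1 rose (6.25%, against 14.6% of all genes tested), Timm10, an intermembrane-space chaperone of carriers (log2 change 0.60, SE 0.18, 95% interval 0.22 to 0.98, adjusted p = 0.0351). Timm10 lost the call without replicate 1, 2 or 3 of 3 months or replicate 2, 3 or 4 of 29 months (adjusted p up to 0.0986). Of 22 other mitochondrial channels and transporters 1 rose and 2 fell, or 13.6%, which is near the 14.6% of all genes tested. Tspo of the outer membrane rose by 0.64 (adjusted p = 0.0345), and the sideroflexins Sfxn2 and Sfxn3, a family that includes serine carriers, changed by -0.64 (adjusted p = 0.0224) and -0.66 (adjusted p = 0.0231). Single arrays decided these calls too. Tspo lost its call without replicate 1, 3 or 4 of 3 months or replicate 2 or 4 of 29 months (adjusted p up to 0.094). Sfxn2 lost it without replicate 1, 3 or 4 of 3 months or replicate 3 of 29 months (up to 0.0646), and Sfxn3 without replicate 1 or 3 of 3 months or replicate 2 or 3 of 29 months (up to 0.0663). In the setting that drops the 4 low-weight arrays, 3 genes of this list rose and 0 fell. The share of all genes called there is not given, so this count has no background beside it.

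Markers of other cells were set beside the carriers at 29 against 3 months, where 6.99% of all genes tested were higher and 7.66% lower; each list holds only 2 to 10 measured genes. Of 5 endothelial markers 3 were lower (Cdh5, Tek and Tie1), and their mean level, as a deviation from all arrays, was -0.54 to 0.06 at 29 months and 0.28 to 0.51 at 3 months. Of 6 fibroblast markers 2 were lower (Col1a1 and Col3a1), with mean levels of -1.67 to 0.53 at 29 months and 0.41 to 1.16 at 3 months. All 6 slow-fibre markers had positive changes (median 1.03), none passed, 4 had an unadjusted p below 0.05, and their mean level was -0.49 to 0.86 at 29 months and -1.63 to 0.28 at 3 months. Both measured genes of the brown-fat list, Cidea and Ppargc1a, rose (mean level 0.44 to 1.12 at 29 months and -1.22 to 0.05 at 3 months). Ucp1 and Elovl3, which define that cell type, were not above background, and the rise is not read here as a change in that cell type.

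Of 3 B and plasma cell markers 1 was higher, Jchain, part of secreted antibodies (log2 change 3.26, adjusted p = 0.0284), and the mean level was -0.46 to 2.46 at 29 months and -1.02 to -0.58 at 3 months. Of 5 Schwann cell markers 1 was higher and 1 lower, 4 had negative changes, and the median change was -0.59. The higher one was the myelin gene Mbp (log2 change 2.05, adjusted p = 0.0036). The 5 had mean levels of -1.41 to 0.41 at 29 months and -0.64 to 1.02 at 3 months. Of 4 smooth muscle markers Rgs5 was lower (log2 change -1.11, adjusted p = 0.03), with mean levels of -0.46 to 0.00 at 29 months and 0.04 to 0.50 at 3 months. Of 2 satellite cell markers Pax7 was lower (log2 change -0.73, adjusted p = 0.0251), with mean levels of -0.30 to 0.23 at 29 months and 0.13 to 0.42 at 3 months. Of the 10 muscle fibre markers Casq1, the calcium store protein of the sarcoplasmic reticulum, was lower (log2 change -1.20, adjusted p = 0.000217), and the mean level was -0.46 to 0.00 at 29 months and -0.10 to 0.11 at 3 months. By limma 0 of 5 macrophage, 0 of 4 T and NK cell and 0 of 4 erythroid markers passed, and 2, 0 and 2 of them had an unadjusted p below 0.05. Of the marker calls named here, those of Col1a1, Cidea, Ppargc1a, Mbp and Casq1 held with any 1 array left out, though Mbp changed by 0.52 (adjusted p = 0.324) as the mean over its probes. Those of Cdh5, Tek, Tie1, Col3a1, Jchain, Rgs5 and Pax7 were each lost without 1 or more of the 8 arrays of 3 and 29 months (adjusted p up to 0.0862), and every one of these 8 ended at least 1 of them. The part of these cells in the carriers' changes was not tested.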

How the data were processed

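Total RNA was hybridised to 16 single-colour (Cy3) Agilent mouse arrays, 4 per age, and scanned with Feature Extraction 10.7.1.1, per the file headers. The deposited scanner intensity is the processed signal, background-subtracted within the array by that software, per the file headers; median spot and background intensities were deposited beside it. The authors' deposited log2 values have nearly equal distributions on all arrays (medians 4.55 to 4.69). No source used here states how they were centred and scaled. Their rows matched the scanner files by feature number (r 0.985 to 0.993) and not by probe name, so they were used by feature number, as an alternative only.

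Processed signals were put on the log2 scale, spots of a probe averaged after outlier spots were left out, and each array's 75th percentile over 55588 probes subtracted. Probes had to be well above background in every array of 1 age or more, and no spot was saturated. Accessions named 26540 probes with a RefSeq symbol. For each gene the kept probe with the highest mean was used. A group-means model over the 16 arrays was fitted with limma 3.58.1 in R 4.3.3, and p-values were adjusted by Benjamini-Hochberg over 21777 genes. The number of arrays limits the precision.

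Named with all values were carriers that passed in any comparison of ages or by the F test, plus a list of well-known carriers; Slc25a36 was added after its values were seen. The members, lists and tests were chosen with earlier results of these data known. Replicate numbers give only an array's column on its slide and were not used to pair the samples in the main fit. Protein sequences were not used here. The values of 1 carrier and 1 cell marker are not reported here, though both are included in the counts and means over their lists.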

Additional observations from a re-analysis of the deposited data

Results flagged for a closer look

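For 4 of the 100 sets of 4 arrays checked (25 carriers at 4 ages), 1 array stood apart by Dixon's test at its 95% critical value; chance gives about 1 in 20. At 24 months, replicate 2 had a Slc25a28 level of 3.60, against 2.98 to 3.04 on the others. At the same age replicate 1 had a Slc25a29 level of 0.61, against 0.33 to 0.37. At 15 months, replicate 4 had a Slc25a37 level of 2.04, against 2.59 to 2.68. At 3 months, replicate 4 had a Slc25a42 level of 3.98, against 3.73 to 3.76.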

How the results depend on the processing

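Of the carriers called at 29 against 3 months, Slc25a22, Slc25a34, Slc25a35 and Slc25a47 passed under all 28 alternative settings. The 13 calls there became 5 with median scaling and 6 with only the ages compared in the fit, and were 10 to 14 when 1 array was left out. The 1 call at 24 against 3 months became 2 with quantile normalization, the authors' deposited log2 values or array weights and 4 with normexp background correction. It became 0 with median scaling, without the filter on dim probes, with the replicate block, without the 4 arrays of lowest weight, and with a 1.5-fold minimum. With 1 array left out it was 0 to 3. The calls over all genes moved as well. At 24 against 3 months 472 were higher and 542 lower in the main fit, and 840 and 1008 with normexp. The counts were 546 and 922 with the deposited values, 479 and 556 with quantile normalization, and 188 and 324 with median scaling. The 3 calls at 29 against 24 months became 1 with median scaling, without the filter, with only the ages compared and without the 4 arrays of lowest weight, and were 1 to 5 with 1 array left out. The 10 calls of the F test became 4 with median scaling, 4 without the filter and 5 with the replicate block, and were 5 to 11 with 1 array left out. The slope within slides called 0 carriers, 2 with array weights and 1 without the 4 arrays of lowest weight. Neither 15 against 3 nor 24 against 15 months called a carrier under any alternative run (count 0). The cause of these moves was not tested, and some of these settings also held fewer arrays. Counts over all genes are given here for only some of these settings.

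No called value changed sign. Over the named carriers and all comparisons of ages, 367 alternative values kept a call, 79 lost it, and 16 uncalled values became called. Blocking on the replicate number left 2 calls at 29 against 24 months, while 29 against 3 months kept a count of 13. Samples with the same number correlated at -0.47 to 0.30 over 24 pairs, of which 6 were over 0.1. These are correlations of deviations from means of only 4 arrays, so they neither show nor exclude a pairing by number. Median scaling moved the median change of all genes at 24 against 3 months to -0.15, where it was -0.02, and left 818 higher and 719 lower genes at 29 against 3 months, where 1522 and 1668 were called. At 29 against 24 months it left 226 higher and 23 lower genes, where 320 and 97 were called, and at 24 against 15 months 10 and 8, where 15 and 6 were called. Slide as a random block could not be fitted, and naming genes by a name column in the scanner files was not run. Of 47 carriers 11 were not measured above background, and 4 of the 36 tested were below it on 1 or 2 arrays.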
